A study of Mus musculus with 9 samples.

Results

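Hepcidin and 9 further genes that sense, carry, import, export or oxidise iron were followed across mouse liver RNA-seq libraries. The genes were listed by name: Hamp, Hamp2, Bmp6, Hfe, Tfr2, Tfrc, Trf, Slc11a2, Slc40a1 and Cp. All 10 were found among the 52550 genes of the deposited tables, and all 10 passed the filter on low values, which kept the 12014 genes that reached 1 FPKM in 3 or more libraries. FPKM divides the fragments of a gene by its length and by the size of the library, so levels can be set side by side between genes. The livers came from mice of 320 days, with 3 libraries for each of 3 genotypes. The double mutant is p53+/-;Tsc1fl/fl;Alb-Cre, the Tsc1-deleted group is Tsc1fl/fl;Alb-Cre, and the p53-heterozygous group is p53+/-. Cre in the first 2 groups is under the albumin promoter, so that recombination is aimed at hepatocytes. Which cells of the liver lost Tsc1 was not tested. The p53+/- livers carry no Cre by their label, and the labels of the Tsc1-deleted livers name no p53 allele. The labels do not state that replicate libraries are separate animals, and the p-values therefore reflect only how far these libraries spread, which may be technical. The series title names biomarkers for liver cancer that has lost both p53 and Tsc1, which sets the double mutant against each single genotype.

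Hepcidin, the peptide hormone encoded by Hamp, is made by hepatocytes and limits the entry of iron into plasma. It binds ferroportin (Slc40a1), the only known cellular iron exporter of mammals, blocks it and sends it for degradation. Hepatocytes raise Hamp transcription when bone morphogenetic proteins, above all BMP6 from sinusoidal endothelial cells, signal through SMAD proteins, and when interleukin-6 signals through STAT3. Hfe and Tfr2 report the iron loading of plasma transferrin to that pathway. Tfrc messages and some Slc11a2 messages carry iron-responsive elements through which iron regulatory proteins act on their stability when cell iron is low.

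Mice have 2 hepcidin genes, Hamp and Hamp2, which lie near each other on chromosome 7. Their upstream sequences are shown because the pair differs in 1 known regulatory element. Whether that difference bears on the levels of the pair was not tested. The sequences are from RefSeq on GRCm38.p6, minus strand, 5′ to 3′, and end at the base before the annotated transcript start. Capitals mark the proximal BMP response element of Hamp, or its aligned counterpart in Hamp2, and after it the STAT3 element. Hamp lies at chr7:30944030-30944198 and Hamp2 at chr7:30924182-30924347.
Hamp: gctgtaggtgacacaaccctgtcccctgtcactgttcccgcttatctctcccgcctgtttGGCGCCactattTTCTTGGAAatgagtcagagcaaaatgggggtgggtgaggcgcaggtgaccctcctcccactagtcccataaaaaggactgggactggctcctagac
Hamp2: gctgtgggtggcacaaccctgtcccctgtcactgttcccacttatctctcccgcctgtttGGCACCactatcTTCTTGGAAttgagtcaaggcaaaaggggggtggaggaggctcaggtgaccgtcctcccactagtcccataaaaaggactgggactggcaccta
Of 166 bases set against each other from the 5′ end without gaps, 152 were identical (91.6%). The BMP element begins 109 bases before the start in Hamp and 106 in Hamp2, and the Hamp2 counterpart differs by G4A, counted from 1 at the element's 5′ end. The STAT3 element begins 97 and 94 bases before the start and is identical in the pair.

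A search for 4 short motifs on both strands covered the RefSeq windows from 250 bases before to 50 bases after a start. Windows were found for 7 of the 10 genes (Hamp, Hamp2, Tfrc, Tfr2, Bmp6, Hfe and Cp). GGCGCC, the core of the BMP element, was present in Hamp and at 1 of the Tfrc starts, 89 bases upstream, against 11.9% of 32851 windows of all genes. TTCNNNGAA, the STAT3 motif, was present in Hamp and Hamp2, against 8.3% of all windows. The antioxidant element core TGACNNNGC lay in Bmp6 and Hfe (12.4% of all windows), and the E-box CACGTG in Bmp6 (7.15%). No match overlapped another, and no window of Tfr2 or Cp held any of the 4. A match is a description of letters only.

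**Figure D1:**
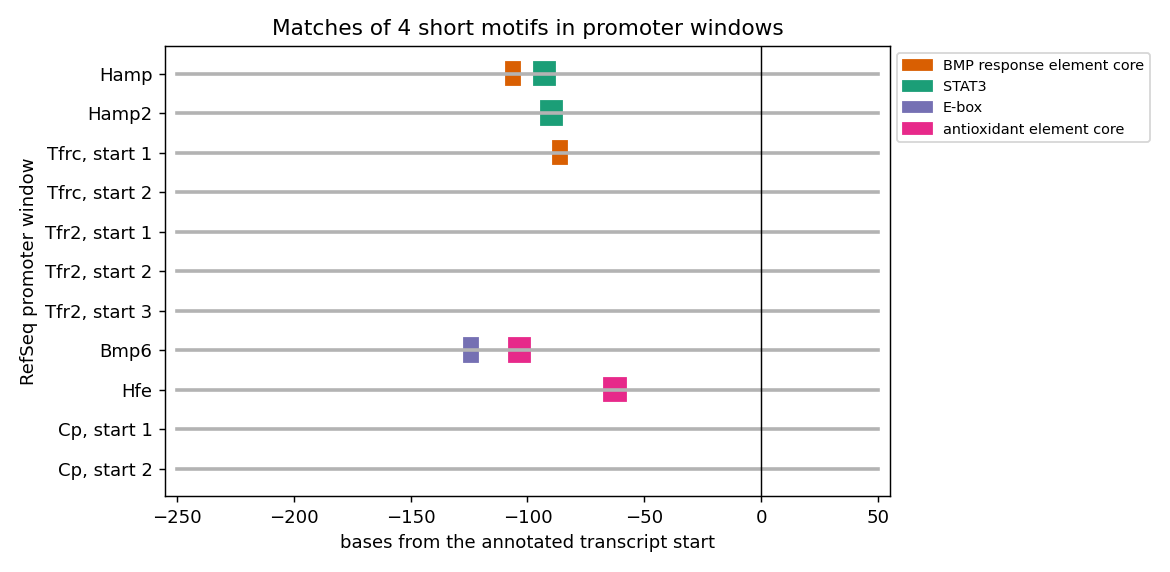
Matches of 4 short motifs in the RefSeq promoter windows of 7 iron genes, with distance in bases from the annotated transcript start on the horizontal axis and 1 line per window. Coloured blocks are matches on either strand; Hamp has the BMP and STAT3 motifs side by side, Hamp2 has the STAT3 motif, and the Tfr2 and Cp windows are empty.

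The p53-heterozygous libraries stood apart from the other 6 and from each other. Mitochondrial genes took 7.98% to 24.1% of the length-weighted signal in double mutant and Tsc1-deleted libraries, against 68.0%, 55.9% and 25.5% in p53-heterozygous libraries 1, 2 and 3. Nuclear protein-coding genes took 65.9% to 87.3% in double mutant and Tsc1-deleted libraries, against 7.43%, 6.63% and 61.8% in p53-heterozygous libraries 1, 2 and 3. Levels are therefore as deposited unless rescaling is named, and the tests between genotypes were run both as deposited and after nuclear rescaling, in which every library was set to the same FPKM total over 21806 nuclear protein-coding genes. That step multiplied double mutant and Tsc1-deleted libraries by 0.957 to 1.05, and p53-heterozygous libraries 1, 2 and 3 by 10.3, 11.1 and 1.33. Alb, the plasma albumin gene, was at 7971 to 12314 FPKM as deposited in double mutant and Tsc1-deleted libraries, against 2216, 2375 and 149.5 FPKM in p53-heterozygous libraries 1, 2 and 3. In p53-heterozygous library 3 the hepatocyte marker genes are thus far below the level its liver label implies, and log2 values of that library correlated with those of libraries 1 and 2 at 0.598 and 0.572, while every other pair within a group was at 0.919 or more. Estimated depth was about 10700000 to 18300000 reads per library. Tsc1 was at 1.02, 1.13 and 1.04 FPKM after rescaling in double mutant libraries and at 0.77, 0.96 and 0.91 in Tsc1-deleted ones, against 1.51, 2.81 and 1.32 in p53-heterozygous ones. As deposited the p53-heterozygous values were 0.15, 0.25 and 0.99, and these values do not separate deleted from intact exons.

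By mean level in double mutant livers the order was Trf, Hamp, Cp, Hamp2, Tfr2, Slc40a1, Slc11a2, Tfrc, Bmp6 and Hfe. In that order Trf and Hamp, Cp and Hamp2, and Tfr2 and Slc40a1 were separate in all 3 libraries, and the other neighbours overlapped. Hamp was the iron gene with the widest range among double mutant libraries. It measured 2028, 167.4 and 749.5 FPKM in double mutant libraries 1, 2 and 3, and 1442, 2156 and 774.5 FPKM in Tsc1-deleted libraries, against 121.8, 251.5 and 59.80 FPKM in p53-heterozygous libraries. The highest double mutant library held 12.1 times the lowest, and the ranges of the double mutant and Tsc1-deleted groups overlapped. As deposited, Tsc1-deleted livers were above p53-heterozygous livers without overlap. After nuclear rescaling, p53-heterozygous libraries 1 and 2 came to 1253 and 2794 FPKM, within or above the range of the other genotypes, and library 3 stayed lowest at 79.80 FPKM. In bulk liver, fewer cells of a type and less RNA per cell cannot be told apart, here or for the genes that follow.

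Hamp2, the neighbouring hepcidin copy, was far less abundant. It measured 70.59, 35.61 and 68.56 FPKM in double mutant livers and 132.9, 91.60 and 39.16 FPKM in Tsc1-deleted livers, against 0.27, 46.57 and 2.62 FPKM in p53-heterozygous livers. Within the p53-heterozygous group the copy was nearly silent in library 1, where 0.27 FPKM stands for about 2 reads, and clearly detected in library 2, above the lowest library of each other genotype. After nuclear rescaling Hamp2 measured 68.00, 35.35 and 68.56 FPKM in double mutant livers and 132.5, 96.17 and 37.47 FPKM in Tsc1-deleted livers, against 2.75, 517.2 and 3.49 FPKM in p53-heterozygous livers. On that scale p53-heterozygous library 2 was the highest of the 9 and libraries 1 and 3 were the lowest. The rescaled means were 57.3 ± 19 FPKM in double mutant livers and 88.72 ± 48 FPKM in Tsc1-deleted livers, against 174.5 ± 297 FPKM in p53-heterozygous livers (SD, n = 3 each), so that the mean of the p53-heterozygous group rests on library 2. Its share of the Hamp level, which no rescaling can move, was 0.0348, 0.213 and 0.0915 in double mutant libraries, 0.0922, 0.0425 and 0.0506 in Tsc1-deleted ones, and 0.0022, 0.185 and 0.0437 in p53-heterozygous ones. The pair thus kept no fixed ratio within any genotype. Of the 50-base stretches of the annotated transcripts, 60 are common to both genes, which is 16.6% of those of Hamp and 11.2% of those of Hamp2, so some reads may have been assigned to either.

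**Figure D2:**
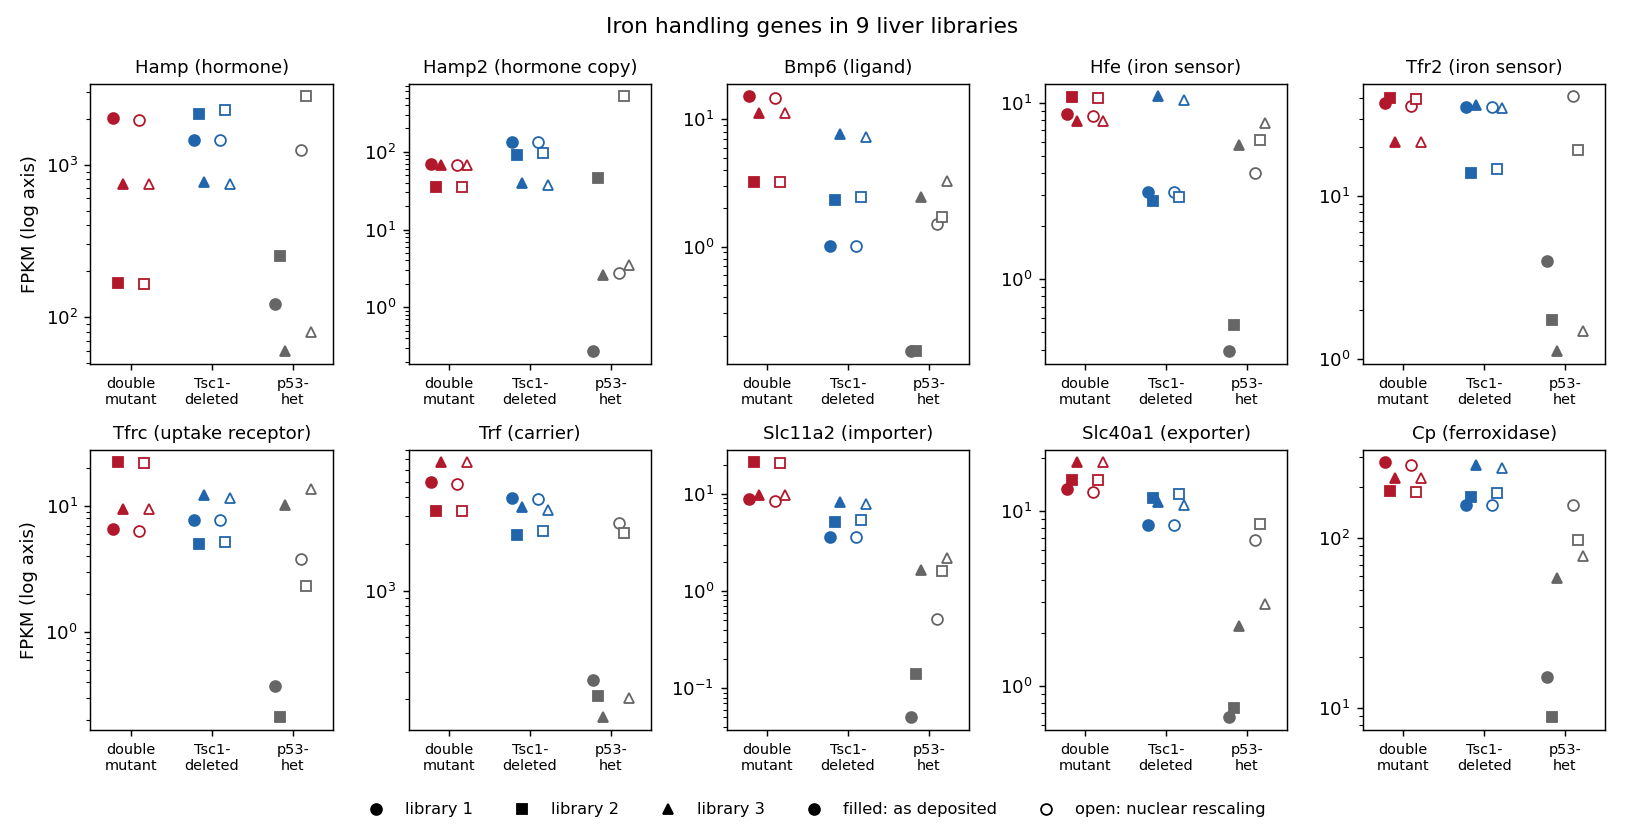
FPKM of the 10 iron genes in each of the 9 libraries on a log axis, with 1 panel per gene; columns are the double mutant, Tsc1-deleted and p53-heterozygous groups, marker shapes are libraries 1 to 3, filled markers are values as deposited and open markers values after nuclear rescaling. Filled p53-heterozygous points of Trf, Slc40a1, Cp, Tfr2 and Slc11a2 lie below both other groups; rescaling lifts libraries 1 and 2 most, and Slc11a2 (0.51 to 2.18 FPKM after rescaling) and Cp stay below both.

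Bmp6, the iron-induced ligand that stimulates hepcidin, had its highest values in double mutant livers. It measured 15.15, 3.22 and 11.22 FPKM there and 1.01, 2.34 and 7.63 FPKM in Tsc1-deleted livers, against 0.15, 0.15 and 2.44 FPKM in p53-heterozygous livers. Double mutant libraries 1 and 3 exceeded every other library, while library 2 lay inside the Tsc1-deleted range. Rescaling brought the p53-heterozygous values to 1.51, 1.70 and 3.26 FPKM, the last of them above double mutant library 2. The 10 endothelial markers, the cell type known as the main source of Bmp6 in liver, summed after rescaling to 7.42, 30.32 and 38.30 FPKM in double mutant livers and to 30.09, 28.57 and 33.84 FPKM in Tsc1-deleted livers, against 50.03, 63.10 and 98.70 FPKM in p53-heterozygous livers. Double mutant library 1, with the most Bmp6, had the smallest endothelial sum. The largest, in p53-heterozygous library 3, was mostly Fcgr2b (61.52 FPKM), and the markers went opposite ways there. Fcgr2b, Stab1, Pecam1, Cdh5 and Lyve1 were higher than in p53-heterozygous library 1, and Kdr was lower. Clec4g, Oit3, Gpr182 and Stab2 were at 0.19, 0.12, 0.21 and 0.23 FPKM, against 13.30, 3.86, 7.18 and 2.22 FPKM in p53-heterozygous library 1. An exon of Txndc5, on the opposite strand, overlaps Bmp6. Txndc5 was at 21.47 to 35.87 FPKM in the double mutant and Tsc1-deleted libraries, and since no source used here says whether strand was used in counting, reads of the pair cannot be told apart.

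Hfe, a membrane protein that helps couple transferrin saturation to hepcidin, was even across double mutant livers at 8.66, 10.77 and 7.83 FPKM. Tsc1-deleted livers had 3.12, 2.79 and 10.85 FPKM, and p53-heterozygous livers 0.39, 0.55 and 5.77 FPKM. Tsc1-deleted library 3 and p53-heterozygous library 3 were the high ones of their groups. After rescaling p53-heterozygous livers had 3.98, 6.16 and 7.70 FPKM, inside the Tsc1-deleted range.

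Tfr2, the hepatocyte transferrin receptor that acts as a sensor, measured 37.30, 40.03 and 21.50 FPKM in double mutant livers and 35.66, 13.97 and 36.63 FPKM in Tsc1-deleted livers, against 4.00, 1.74 and 1.11 FPKM in p53-heterozygous livers. As deposited the p53-heterozygous libraries lay below all others. After rescaling they spread over 41.18, 19.37 and 1.48 FPKM, from above to below every other library.

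Trf, which encodes the plasma iron carrier transferrin, was the most abundant of the 10. It measured 5016, 3266 and 6676 FPKM in double mutant livers and 3912, 2287 and 3425 FPKM in Tsc1-deleted livers, against 264.6, 210.4 and 153.0 FPKM in p53-heterozygous livers. The double mutant and Tsc1-deleted ranges overlapped, and the p53-heterozygous libraries lay below both. Rescaled p53-heterozygous values were 2723, 2338 and 204.1 FPKM. The ratio of Trf to Alb within a library, computed after the values were seen, was 0.485, 0.377 and 0.569 in double mutant livers and 0.318, 0.287 and 0.301 in Tsc1-deleted livers, against 0.119, 0.0886 and 1.02 in p53-heterozygous livers. By that ratio the double mutant libraries were above the Tsc1-deleted libraries without overlap. The share of all genes whose ratio to Alb does the same was not computed. The ratio was highest of all in p53-heterozygous library 3, where Alb was at 149.5 FPKM.

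Tfrc, the receptor through which most cells take up transferrin iron, stayed low in all livers. It measured 6.64, 22.28 and 9.55 FPKM in double mutant livers and 7.78, 4.98 and 12.16 FPKM in Tsc1-deleted livers, against 0.37, 0.21 and 10.29 FPKM in p53-heterozygous livers. Double mutant library 2 was the highest of the 9. All 3 genotypes overlapped, also after rescaling, which gave p53-heterozygous libraries 3.81, 2.31 and 13.73 FPKM. Across the 9 libraries after rescaling, Tfrc had the most negative Pearson correlation with Hamp among the members, -0.824, a value that rests on libraries of unlike composition and became 0.165 as deposited.

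Slc11a2, also known as DMT1, imports ferrous iron across the cell surface and out of endosomes. It measured 8.76, 21.11 and 9.81 FPKM in double mutant livers and 3.64, 5.10 and 8.25 FPKM in Tsc1-deleted livers, against 0.05, 0.14 and 1.63 FPKM in p53-heterozygous livers. Each genotype was above the next without overlap, an order whose share over all genes was not computed. The order held after rescaling, with 8.44, 20.95 and 9.81 FPKM in double mutant livers, 3.63, 5.36 and 7.89 FPKM in Tsc1-deleted livers, and 0.51, 1.60 and 2.18 FPKM in p53-heterozygous livers. The lowest 2 deposited values rest on about 4 and 10 reads.

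Slc40a1, the exporter that hepcidin blocks, measured 13.25, 15.05 and 18.88 FPKM in double mutant livers and 8.28, 11.86 and 11.20 FPKM in Tsc1-deleted livers, against 0.66, 0.75 and 2.19 FPKM in p53-heterozygous livers. Each genotype was above the next without overlap as deposited, and the share of all genes in that order was again not computed. After rescaling double mutant livers stayed highest, the lowest Tsc1-deleted value was 8.26 FPKM, and 1 of the p53-heterozygous values of 6.80, 8.36 and 2.93 FPKM exceeded it.

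Cp, the plasma ferroxidase ceruloplasmin that loads exported iron onto transferrin, measured 280.7, 189.3 and 226.8 FPKM in double mutant livers and 157.8, 175.6 and 269.8 FPKM in Tsc1-deleted livers, against 15.21, 8.82 and 58.72 FPKM in p53-heterozygous livers. The double mutant and Tsc1-deleted ranges overlapped. After rescaling the lowest Tsc1-deleted value was 157.4 FPKM, and the p53-heterozygous values of 156.5, 98.00 and 78.36 FPKM were all below it.

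Set against Tsc1-deleted livers, double mutant livers showed no iron gene past the threshold, an adjusted p of 0.05 in limma on log2(FPKM + 1) with Benjamini-Hochberg adjustment over the 12014 genes. Of all genes tested, 0.0166% were higher and 0.00832% lower in the double mutant by the same rule as deposited. The fitted log2 change was positive for 8 of the 10 genes and negative for Hamp and Hamp2. The median over the 10 was 0.51, beside 0.29 over all genes tested, and 0.49 beside 0.27 after rescaling. Slc11a2 and Slc40a1 were above without overlap on both scales, against 11.4% of all genes as deposited and 13.2% after rescaling, and no iron gene was below without overlap, against 3.18% and 3.3%.

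Slc11a2 averaged 13.07 ± 6.86 FPKM in double mutant livers and 5.626 ± 2.14 FPKM in Tsc1-deleted livers after rescaling (SD, n = 3 each). Its log2 change was 1.03 (SE 0.44, 95% interval 0.04 to 2.03), with a limma p of 0.0433 before adjustment and 0.88 after it. That made it 1 of 10 iron genes at an unadjusted p under 0.05 after rescaling, beside 4.2% of all genes, and 0 of 10 were so as deposited, beside 2.13%. The largest positive change belonged to Bmp6, 9.864 ± 6.08 FPKM in double mutant livers and 3.659 ± 3.5 FPKM in Tsc1-deleted livers, for a log2 change equal to 1.28 (SE 0.72, limma adjusted p = 1). Hamp averaged 981.7 ± 952 FPKM in double mutant livers and 1457 ± 691 FPKM in Tsc1-deleted livers, for a log2 change equal to -1.08 (SE 0.98, 95% interval -3.15 to 0.99, limma adjusted p = 1). The interval for Hamp covers changes in both directions, so no change in Hamp was detected. Its width rests on the spread of all 9 libraries, the unlike p53-heterozygous ones included. With only the 6 libraries compared, no iron gene passed as deposited either (Hamp limma adjusted p = 0.544). In that fit 1 of 10 iron genes had an unadjusted limma p under 0.05, beside 11.5% of all genes. Without double mutant library 2, the low one, the fitted Hamp change was -0.12 as deposited.

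**Figure D3:**
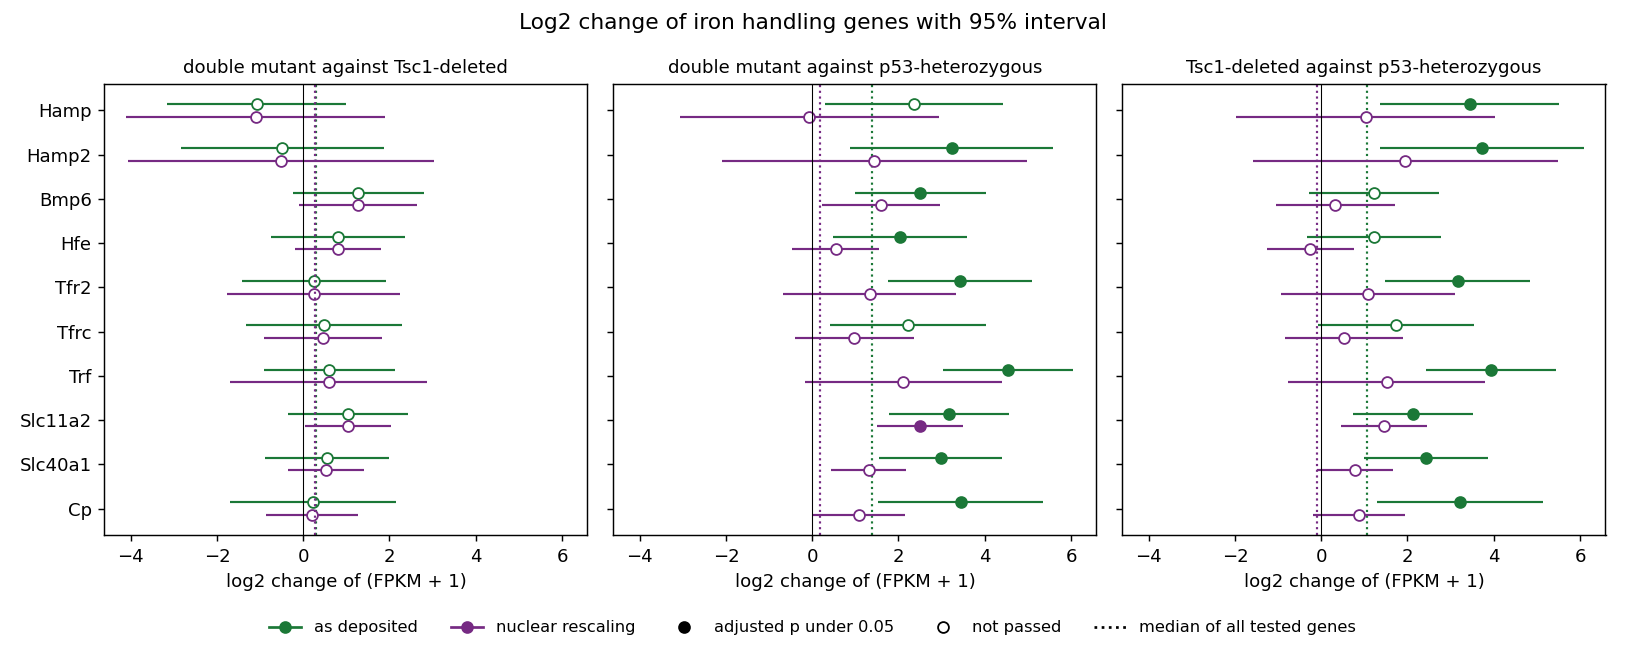
Log2 change of FPKM + 1 with its 95% interval from limma for the 10 iron genes in 3 comparisons, as deposited (green) and after nuclear rescaling (purple); filled points have an adjusted p under 0.05 and dotted lines are the medians of all tested genes. No point is filled in double mutant against Tsc1-deleted, 8 green points and the purple Slc11a2 point in double mutant against p53-heterozygous, and 7 green points in Tsc1-deleted against p53-heterozygous.

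Set against p53-heterozygous livers, double mutant livers had higher levels of 8 of the 10 genes as deposited, when 31.9% of all genes were called higher and 0.449% lower. The 8 were Trf, Slc11a2, Slc40a1, Tfr2, Cp, Bmp6, Hamp2 and Hfe. Trf had the largest change, with 4986 ± 1705 FPKM in double mutant livers, against 209.3 ± 55.8 FPKM in p53-heterozygous livers (SD, n = 3 each), for a log2 change equal to 4.54 (SE 0.72, limma adjusted p = 0.00307). Hamp (2.36, limma adjusted p = 0.0666) and Tfrc (2.22, limma adjusted p = 0.0547) did not pass. The median log2 change over the 10 was 3.08, beside 1.38 over all genes, and 7 lay above without overlap, against 41.3% of all genes (0.574% were below). The mitochondrial share was highest in p53-heterozygous libraries 1 and 2 (68.0% and 55.9%). In p53-heterozygous library 3 it was 25.5%, near the 24.1% of Tsc1-deleted library 2. Trf was at 153.0 FPKM in the former and 2287 FPKM in the latter. Of the 10 genes, Tfrc, Bmp6 and Hfe were higher in the former and the others were lower. The part of the mitochondrial share in these values was not tested. The count was 2, 2 and 3 without double mutant libraries 1, 2 and 3, when 3.99%, 2.66% and 6.34% of all genes were called higher. It was 4, 5 and 8 without p53-heterozygous libraries 1, 2 and 3, when 6.36%, 7.06% and 93.3% of all genes were called higher.

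After nuclear rescaling Slc11a2 alone of the 10 passed in that comparison, when 2.12% of all genes were called higher and 1.56% lower. It averaged 13.07 ± 6.86 FPKM in double mutant livers and 1.429 ± 0.848 FPKM in p53-heterozygous livers, for a log2 change equal to 2.50 (SE 0.44, 95% interval 1.50 to 3.49, limma adjusted p = 0.0262). Without p53-heterozygous library 3 its log2 change was 2.73 (limma adjusted p = 0.0042), when 18.4% of all genes were called higher. With that library as the only p53-heterozygous one the log2 change was 2.04 (limma adjusted p = 0.027), a fit in which the lone library is assumed to vary like the other groups and 9.67% of all genes were called higher and 17.8% lower. The call ended, at an adjusted p of 0.0869, when Tsc1-deleted libraries were left out of the fit. It also ended without Tsc1-deleted library 1 (0.0526), without p53-heterozygous library 1 or 2 (0.0643 and 0.0658), and without any 1 of the double mutant libraries (0.0765 to 0.105). As deposited it ended without double mutant library 2 alone (0.0548). Slc40a1 had a log2 change of 1.31 (limma adjusted p = 0.0901), and passed at 0.0465 without p53-heterozygous library 3, where Tfrc passed too at 0.0407. Hamp2 had a log2 change of 1.44 (limma adjusted p = 0.645), which became 3.77 (limma adjusted p = 0.0452) without p53-heterozygous library 2 and 0.34 without library 3. Hamp was at -0.07 (SE 1.34, limma adjusted p = 0.986), at -1.58 without p53-heterozygous library 3 and at 2.95 with that library alone. The median log2 change over the 10 genes was 1.32, beside 0.18 over all genes, and 5 (Trf, Slc40a1, Hfe, Cp and Slc11a2) were above without overlap, against 17.4% of all genes, and none below, against 9.56%.

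Set against the same p53-heterozygous libraries, Tsc1-deleted livers had higher levels of 7 of the 10 genes as deposited, when 12.1% of all genes were called higher and 0.0916% lower. The 7 were Trf, Hamp2, Hamp, Cp, Tfr2, Slc40a1 and Slc11a2. Trf averaged 3208 ± 834 FPKM in Tsc1-deleted livers, against 209.3 ± 55.8 FPKM in p53-heterozygous livers, for a log2 change equal to 3.93 (SE 0.72, limma adjusted p = 0.00879). Hamp averaged 1457 ± 691 FPKM in Tsc1-deleted livers, against 144.4 ± 97.8 FPKM in p53-heterozygous livers, for a log2 change equal to 3.44 (SE 0.98, limma adjusted p = 0.0315). Bmp6 (1.22), Hfe (1.22) and Tfrc (1.74) did not pass, and 6 genes lay above without overlap, against 27.4% of all genes (0.316% were below). Leaving out any 1 Tsc1-deleted library took the count to 0, when 0.00832% to 0.0749% of all genes were called higher. It was 2 and 3 without p53-heterozygous libraries 1 and 2, beside 4.81% and 5.04% of all genes, and 10 without p53-heterozygous library 3, when 89.4% of all genes were called higher. Without double mutant libraries 1, 2 and 3 it was 3, 3 and 2, beside 6.68%, 7.29% and 6.41%.

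After rescaling no iron gene passed between Tsc1-deleted and p53-heterozygous livers in limma, when 0.0916% of all genes were called in each direction. Slc11a2 had the lowest p, with a log2 change of 1.46 (SE 0.44, 95% interval 0.47 to 2.46, limma adjusted p = 0.151), and passed without p53-heterozygous library 3 (1.69, limma adjusted p = 0.046). Hamp was at 1.03, at -0.48 without p53-heterozygous library 3 and at 4.05 with that library alone. Hamp2 was at 1.95 (limma adjusted p = 0.569), and at 4.27 without p53-heterozygous library 2 (limma adjusted p = 0.0633). Trf was at 1.52, and at 0.31 without library 3. The median over the 10 was 0.95, beside -0.10 over all genes, and Cp and Slc11a2 were above without overlap, against 8.75% of all genes, and none below, against 11.9%. Both comparisons with p53-heterozygous livers share those 3 libraries.

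Beside the comparisons with p53-heterozygous livers stand the marker genes of liver cell types. The sum over 10 hepatocyte markers after rescaling was 17790 to 22331 FPKM in double mutant livers and 21694 to 34069 in Tsc1-deleted livers, against 40181, 42783 and 616.2 in p53-heterozygous libraries 1, 2 and 3, with no marker at 0. As deposited it was 18468 to 22331 FPKM in double mutant livers and 22674 to 34167 in Tsc1-deleted livers, against 3905, 3852 and 461.7 in p53-heterozygous libraries, so libraries 1 and 2 lay below the other genotypes on that scale and above them after rescaling. After rescaling the 8 erythroid markers summed to 23.46 to 311.2 FPKM in double mutant livers and 155.4 to 473.6 FPKM in Tsc1-deleted livers, where Epb42 was at 0 throughout, against 10392, 21908 and 115.5 FPKM in p53-heterozygous livers, and the p53-heterozygous sums as deposited were 1010, 1972 and 86.57 FPKM. After rescaling, in p53-heterozygous library 3 the 10 Kupffer and macrophage markers summed to 2095 FPKM, the 10 stellate and fibroblast markers to 957.4 FPKM and the 8 cholangiocyte markers to 2567 FPKM. In p53-heterozygous libraries 1 and 2 those sums were 272.3 and 270.8, 121.2 and 82.29, and 156.1 and 113.5 FPKM. The Kupffer and macrophage markers did not move together. Adgre1, Cd68, Csf1r, Lyz2, C1qa and C1qb were highest of the group in library 3, with Lyz2 at 932.7 FPKM. Clec4f (26.38, 33.63 and 0.29 FPKM in libraries 1, 2 and 3), Vsig4 (29.24, 22.97 and 0.00 FPKM) and Timd4 were lowest there. Between double mutant and Tsc1-deleted livers the rescaled cholangiocyte sum was 3562, 999.1 and 1568 FPKM in double mutant libraries and 539.0, 548.9 and 2627 FPKM in Tsc1-deleted ones, which overlap. That sum is mostly Spp1, at 3426, 941.6 and 1430 FPKM and at 512.0, 516.7 and 2563 FPKM. All 7 tested cholangiocyte markers had positive fitted changes, with a median of 1.34 beside 0.27 over all genes, and 0 passed in limma. Krt7, Krt19 and Epcam were above without overlap, against 13.2% of all genes. Negative changes were found for 8 of 10 hepatocyte, 8 of 9 endothelial and 5 of 5 erythroid markers tested, with medians of -0.26, -0.27 and -1.35. Medians of the Kupffer and macrophage, stellate and fibroblast, and lymphocyte and neutrophil markers were 0.34, 0.11 and 0.72. Apoa1 and Serpina1a of hepatocytes and Clec4f and Vsig4 of Kupffer cells were below without overlap, against 3.3% of all genes. The part of these cell types in the iron gene values was not tested.

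The members did not vary together within a genotype. Among double mutant livers, library 2 had the lowest Hamp (167.4 FPKM) and Bmp6 (3.22 FPKM) and also the highest Tfrc, Tfr2 and Slc11a2 of all 9 libraries as deposited. It had the highest Tmprss6, a protease that lowers hepcidin by acting on hemojuvelin, at 222.3 FPKM, against 105.5 and 44.81 FPKM in double mutant libraries 1 and 3 and 79.76 to 89.71 FPKM in Tsc1-deleted livers. It also had the highest Hjv, which encodes hemojuvelin, a co-receptor of the BMP pathway that raises hepcidin. Hjv was at 70.77 FPKM there, against 12.85 and 25.96 FPKM in double mutant libraries 1 and 3 and 45.14 to 64.46 FPKM in Tsc1-deleted livers. Hamp over Tfrc, a ratio that no scaling moves and that was chosen after its values were seen, was 305, 7.51 and 78.5 in double mutant livers and 185, 433 and 63.7 in Tsc1-deleted livers, against 329, 1208 and 5.81 in p53-heterozygous livers. The low values of that ratio fell in 1 double mutant and 1 p53-heterozygous library. These are single libraries, and no test was made.

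Genes whose level followed Hamp most closely over the 9 libraries were ranked by Pearson correlation of log2 values. After rescaling they were Prox1os (0.918), Cyp2c23 (0.9), Stard10 (0.89), Fxyd1 (0.89) and Mrs2 (0.88). As deposited they were Prox1os (0.936), Gm48840 (0.918), Cyp2c23 (0.915), Thpo (0.913), which encodes thrombopoietin, and Fgl1 (0.903), a hepatocyte protein reported to lower hepcidin by binding BMP6. Of the other members, Trf (0.62) and Hamp2 (0.617) were nearest to Hamp after rescaling. All points share the library's depth and composition, and the p53-heterozygous libraries lie apart, so these values describe the 9 libraries only.

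In the BMP and SMAD list of 21 further hepcidin regulators, 20 were tested and none passed in limma between double mutant and Tsc1-deleted livers on either scale. Hjv, which encodes the BMP co-receptor hemojuvelin, had the most negative fitted value after rescaling, -0.91 (limma adjusted p = 0.896), with 12.85, 70.77 and 25.96 FPKM as deposited in double mutant livers and 45.14, 64.46 and 54.98 FPKM in Tsc1-deleted livers. Smad4, the shared SMAD partner, had the largest positive value, 0.91 (limma adjusted p = 0.88). Id1, a direct BMP target, measured 20.62, 10.03 and 20.67 FPKM in double mutant livers and 12.78, 11.38 and 8.61 FPKM in Tsc1-deleted livers. Above without overlap on both scales were 2 of the 20, Bmpr1a, a type I BMP receptor, and Smad7, an inhibitor of the pathway. The share of all genes was 11.4% as deposited and 13.2% after rescaling. Bmpr1a was at 7.72, 7.29 and 6.54 FPKM in double mutant livers and 3.45, 2.47 and 6.35 FPKM in Tsc1-deleted livers. Smad7 was at 2.94, 1.72 and 2.40 FPKM in double mutant livers and 1.21, 0.92 and 1.55 FPKM in Tsc1-deleted livers. Against p53-heterozygous livers, 8 of the 20 were higher in double mutant livers as deposited and 0 after rescaling, beside 31.9% and 2.12% of all genes. In Tsc1-deleted livers 5 and 0 were higher, beside 12.1% and 0.0916% of all genes. Tmprss6 was among the 8 and among the 5 (log2 change 4.72 and 4.48 as deposited, limma adjusted p = 0.00518 and 0.00945), and after rescaling it was at 2.53 and 2.31 without passing.

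In the interleukin-6 and acute phase list of 18 genes, 17 were tested, and Il6 was listed at 0 in every library. None passed in limma between double mutant and Tsc1-deleted livers. Il6ra, the interleukin-6 receptor, was above without overlap, at 3.31, 3.39 and 3.04 FPKM in double mutant livers and 2.94, 1.51 and 2.77 FPKM in Tsc1-deleted livers. Jak2, a kinase that acts upstream of STAT3, was so too, at 5.41, 4.62 and 5.13 FPKM in double mutant livers and 2.21, 2.20 and 4.15 FPKM in Tsc1-deleted livers. Saa4, a constitutive serum amyloid A protein, was below without overlap, at 12.94, 66.42 and 29.93 FPKM in double mutant livers and 117.3, 120.6 and 71.79 FPKM in Tsc1-deleted livers (log2 change after rescaling -1.74, limma adjusted p = 0.88). Of all genes, 11.4% were above and 3.18% below without overlap as deposited, and 13.2% and 3.3% after rescaling. Orm1, an acute phase glycoprotein, had 261.3, 675.4 and 243.0 FPKM in double mutant livers and 1229, 1452 and 625.0 FPKM in Tsc1-deleted livers, which overlap (log2 change after rescaling -1.59). Against p53-heterozygous livers 9 of 17 were higher in either genotype as deposited, among them the fibrinogen genes Fgb and Fgg. The shares of all genes were 31.9% in double mutant and 12.1% in Tsc1-deleted livers. After rescaling 1 passed in double mutant livers and 0 in Tsc1-deleted livers, beside 2.12% and 0.0916% of all genes. The 1 was Lcn2, which encodes the siderophore-binding protein lipocalin 2, at 181 ± 93.7 FPKM in double mutant livers against 33.1 ± 8.09 FPKM in p53-heterozygous livers (log2 change 2.33, SE 0.55, limma adjusted p = 0.0491). That call ended, at an adjusted p of 0.109 in limma, when Tsc1-deleted libraries were left out of the fit.

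The 8 storage and iron regulatory protein genes all had positive fitted changes between double mutant and Tsc1-deleted livers, and none passed in limma on either scale. Their median was that of the whole: 0.29 beside 0.29 over all genes as deposited, and 0.26 beside 0.27 after rescaling. Ferritin heavy chain Fth1 measured 4746, 5156 and 5466 FPKM in double mutant livers and 4585, 4648 and 4493 FPKM in Tsc1-deleted livers as deposited, against 170.9, 128.2 and 2109 FPKM in p53-heterozygous livers. Its double mutant values were above the Tsc1-deleted ones without overlap as deposited and overlapped them after rescaling, when the p53-heterozygous values were 1759, 1424 and 2814 FPKM. Ferritin light chain Ftl1 measured 1460, 3073 and 1949 FPKM in double mutant livers and 1862, 2189 and 1955 FPKM in Tsc1-deleted livers. Fbxl5, which marks iron regulatory protein 2 for degradation when iron is ample, was above without overlap on both scales (4.90, 3.43 and 4.94 FPKM in double mutant livers, 1.88, 1.61 and 3.09 FPKM in Tsc1-deleted livers). Above without overlap were 2 of the 8 as deposited, against 11.4% of all genes, and 1 after rescaling, against 13.2%. Against p53-heterozygous livers 3 of the 8 were higher as deposited in each genotype, and 0 after rescaling. In double mutant livers 31.9% and 2.12% of all genes were so, and in Tsc1-deleted livers 12.1% and 0.0916%.

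Of the 13 further transport and reduction genes, 10 were tested and none passed in limma between double mutant and Tsc1-deleted livers. Steap3, an endosomal ferrireductase that readies transferrin iron for DMT1, was above without overlap, as was Slc39a8. These 2 of the 10 stand beside 11.4% of all genes as deposited and 13.2% after rescaling. Steap3 measured 9.96, 6.38 and 5.14 FPKM in double mutant livers and 2.49, 0.52 and 4.50 FPKM in Tsc1-deleted livers as deposited, and its log2 change after rescaling was 1.35 (SE 0.50, limma adjusted p = 0.88). Against p53-heterozygous livers 5 of the 10 were higher in double mutant livers as deposited and 2 after rescaling, Slc39a8 and Lcn2. The shares of all genes were 31.9% and 2.12%. Slc39a8, a zinc, manganese and iron importer, was at 4.06, 4.33 and 3.67 FPKM in double mutant livers and 2.55, 1.13 and 2.94 FPKM in Tsc1-deleted livers, against 0.04, 0.06 and 0.54 FPKM in p53-heterozygous livers as deposited. Its log2 change after rescaling in double mutant against p53-heterozygous livers was 1.62 (SE 0.30, limma adjusted p = 0.0273). With Tsc1-deleted libraries left out of the fit, neither Slc39a8 (limma adjusted p = 0.0831) nor Lcn2 passed after rescaling. In Tsc1-deleted livers 2 of the 10 were higher as deposited and 0 after rescaling, beside 12.1% and 0.0916% of all genes.

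The 20 heme genes, of which 19 were tested, had no call in limma between double mutant and Tsc1-deleted livers. Hmox1, the heme-degrading enzyme that releases iron, measured 21.93, 53.26 and 82.92 FPKM in double mutant livers and 21.67, 23.15 and 27.82 FPKM in Tsc1-deleted livers. Alad, an enzyme of heme synthesis, measured 19.16, 24.85 and 20.93 FPKM in double mutant livers and 44.73, 39.48 and 24.13 FPKM in Tsc1-deleted livers. Both pairs overlap, Alad by 1 library of each group. Against p53-heterozygous livers 13 of 19 were higher in double mutant livers and 9 in Tsc1-deleted livers as deposited, beside 31.9% and 12.1% of all genes. Among them were the heme carrier hemopexin (Hpx) and haptoglobin (Hp). After rescaling 0 were higher in either, beside 2.12% and 0.0916% of all genes.

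**Figure D4:**
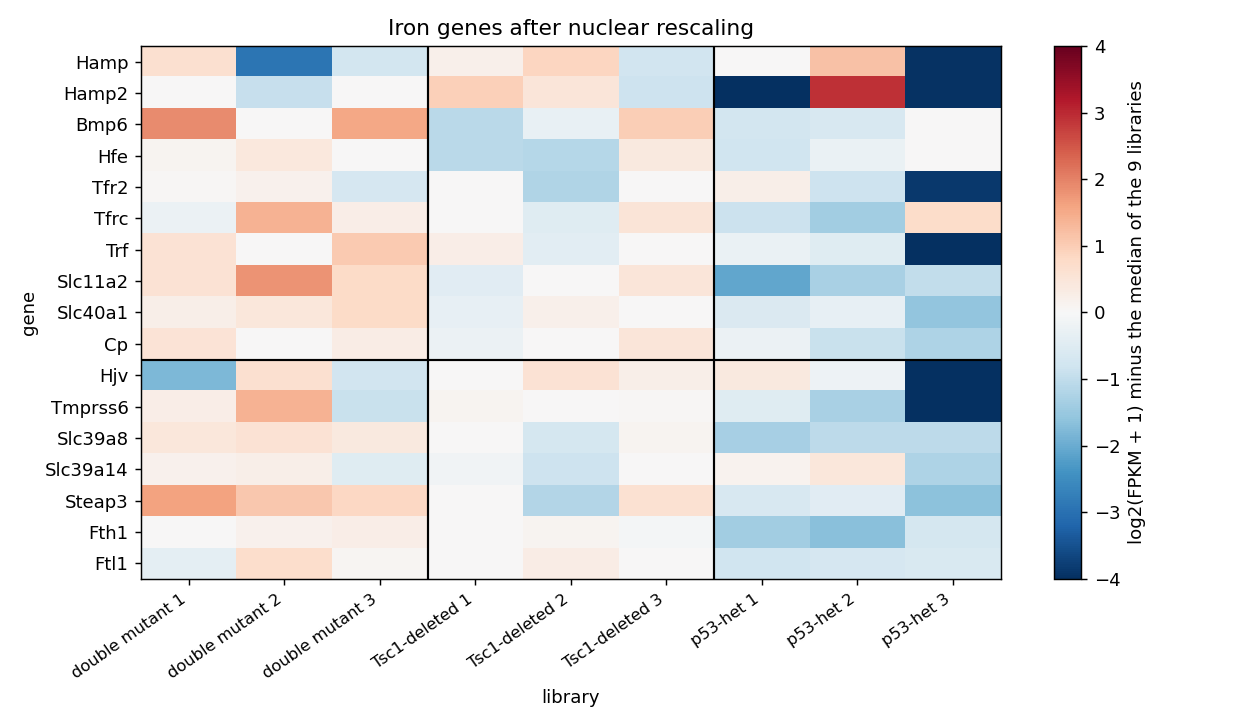
Log2(FPKM + 1) after nuclear rescaling minus the median of the 9 libraries, for the 10 iron genes (upper block) and 7 further iron genes picked after their values were seen (lower block), with libraries in columns and colour limited to 4 either way. Slc11a2 is above its median in all 3 double mutant columns and below it in all 3 p53-heterozygous columns, and p53-heterozygous library 3 is lowest for Hamp, Tfr2, Trf, Slc40a1 and Cp.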

How the data were processed

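Liver RNA was sequenced in 9 libraries, 3 per genotype, after ribosomal RNA depletion with 50-cycle single reads, per the labels' protocols, although 1 label names polyA RNA. Reads were handled with STAR, StringTie and cutadapt on build mm9, per the submitters' processing notes. Tool versions and the annotation are not given in the sources used here. The authors deposited 1 value per gene and library, read from the values as FPKM, since no header names the unit. Of 52550 identifiers, 52403 received a gene name from GENCODE M21 or, where it gave none, from a further list of names. GENCODE M21 also gave the gene type, chromosome, exon length, transcript sequences and gene overlaps. The rescaling, the mitochondrial and nuclear shares and the read estimates rest on it. Promoters are from RefSeq GRCm38.p6, and coordinates on that build were not joined to the mm9 values. Levels were compared as log2(FPKM + 1) with limma 3.58.1 (R 4.3.3), trend and robust moderation, all 9 libraries in 1 fit, two-sided, adjusted over 12014 genes. A fold change on this scale understates that of low genes. Nuclear rescaling used a target of 282932 FPKM. Depth was estimated from the FPKM step of 1 read in short genes, so read numbers are approximate. The fit was tested on simulated data. No replicates were identical or near-identical. Members and lists were chosen with earlier results of these data known. All members were named; from other lists, genes passing on both scales, the 2 highest in mean level and the 2 with the largest rescaled change between double mutant and Tsc1-deleted livers, plus tested genes with non-overlapping ranges in that comparison and Id1, chosen after their values were seen. Alternatives covered scaling, pseudocount, filter, moderation, libraries fitted, replicate block and each library left out.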

Additional observations from a re-analysis of the deposited data

How the results depend on the processing

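Values below are as deposited unless rescaling is named, and settings combining nuclear rescaling with a left-out library were chosen after seeing the data. In double mutant against Tsc1-deleted livers no iron gene was called by limma under any of 30 alternatives; 296 of 300 log2 changes kept their direction and side, and 4 reversed: Tfr2 at -0.10 and Cp at -0.15 under median-ratio rescaling, and Tfr2 without Tsc1-deleted replicate 2 at -0.18 as deposited and -0.17 after nuclear rescaling (range over left-out libraries as deposited -0.18 to 0.53). In double mutant against p53-heterozygous livers the count of 8 stood beside 31.9% of all genes called higher, and each share below is given likewise. It was 1 after nuclear or median-ratio rescaling (2.12% and 4.88%). With only the 6 libraries compared it was 4 as deposited (9.18%) and 0 after nuclear rescaling (0.3%). It was 4 with no filter (4.05%) and 10 with the filter at 5 FPKM (51.7% of its genes). Pseudocounts of 0.1 and 5 gave 9 and 6 (39.2% and 26.6%). It was 3 after nuclear rescaling without p53-heterozygous replicate 3 (18.4%). Leaving out 1 library gave 2 to 8 as deposited (2.66% to 93.3%) and 0 to 3 after rescaling (0.241% to 18.4%). Hamp reversed there to -0.069 after nuclear rescaling (all 9 libraries, 6 libraries, or without any 1 Tsc1-deleted library), -0.11 under median-ratio rescaling, and, with rescaling, -1.58 without p53-heterozygous replicate 3, -0.89 and -0.20 without double mutant replicates 1 and 3; Tfrc was at -0.27 with p53-heterozygous replicate 3 alone. In Tsc1-deleted against p53-heterozygous livers the count of 7 stood beside 12.1% of all genes called higher. It was 0 after nuclear or median-ratio rescaling (0.0916% and 1.41%). With only 6 libraries it was 0 as deposited (0.166%) and after nuclear rescaling (0.0416%). It was 2 with no filter (2.14%) and 5 with a pseudocount of 5 (9.59%). It was 1 after nuclear rescaling without p53-heterozygous replicate 3 (4.4%). Leaving out 1 library gave 0 to 10 as deposited (0.00832% to 89.4%) and 0 to 1 after rescaling (0.0166% to 4.4%). Hfe reversed there to -0.25 after nuclear rescaling (9 or 6 libraries, or without any 1 double mutant library), and with rescaling to -0.0715, -0.47, -0.21, -0.019 and -0.75 without p53-heterozygous replicates 3, 1 and 2 and Tsc1-deleted replicates 1 and 3. Also reversed with rescaling were Hamp (-0.48) and Tfr2 (-0.10) without p53-heterozygous replicate 3, Bmp6 (-0.22) without Tsc1-deleted replicate 3, and Tfrc (-0.74), Bmp6 (-0.14) and Hfe (-0.61) with p53-heterozygous replicate 3 alone. The causes were not tested.

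Libraries with the same number did not pair: their deviations correlated at -0.197 to 0.317. A replicate block gave 0, 10 and 7 called iron genes in double mutant against Tsc1-deleted, double mutant against p53-heterozygous and Tsc1-deleted against p53-heterozygous livers as deposited, when 0.2%, 49.1% and 18.7% of all genes were called higher, and 0, 1 and 0 after nuclear rescaling, where Hamp (-0.069) and Hfe (-0.25) were reversed as without the block. Not every library correlated best with its own number. Low depth of nuclear reads in p53-heterozygous libraries 1 and 2 limits Hamp2, Bmp6, Hfe, Tfrc and Slc11a2, which rest there on about 2 to 32 reads, apart from Hamp2 in library 2.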
